A study of Mus musculus with 16 samples.

Results

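The imprinted region of distal chromosome 7 in the mouse holds 2 neighbouring domains, Igf2-H19 and Kcnq1ot1, and 9 of its genes were followed here: H19, Igf2, Ascl2, Cd81, Tssc4, Kcnq1ot1, Cdkn1c, Slc22a18 and Phlda2. They are taken by name, as the known genes of these domains, but were chosen with earlier results of these data known. Of the 26127 genes in the deposited table, 8 of these 9 had a row; Kcnq1ot1 is not analysed here. RNA was measured in 16 libraries of cultured mouse embryonic stem cells (ESCs), all placed by the labels in the E14 background. The groups were 8 wildtype (WT) libraries, 4 Dnmt1-/- libraries (Dnmt1 KO) and 4 Dicer/Dnmt1 -/- libraries (Dicer/Dnmt1 KO). The study's methods describe Dnmt1 loxP/loxP ESCs of strain C57BL/6 as the parent line, deletion by tamoxifen-induced Cre, and CRISPR-made Dicer lines grown from single cells, so labels and methods differ on the background. The labels give no time since deletion and do not say whether numbered libraries were separate cultures, so p-values measure the spread between these libraries, which may be technical. Culture was in serum with LIF, with or without feeder cells.

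Most genes are read from both parental copies, whereas an imprinted gene is read mainly from the copy inherited from one parent. In the Igf2-H19 domain, the maternal copy makes H19, a long noncoding RNA, and the paternal copy makes Igf2, a fetal growth factor. A control region upstream of H19 carries DNA methylation on the paternal copy; on the unmethylated maternal copy the insulator protein CTCF binds and keeps Igf2 from enhancers that both genes share. In the Kcnq1ot1 domain the promoter of the noncoding RNA Kcnq1ot1 is methylated on the maternal copy, and the paternal Kcnq1ot1 RNA silences nearby genes such as Cdkn1c, Slc22a18 and Phlda2 on the same chromosome. Dnmt1 copies DNA methylation to the new strand at each division, and Dicer1 cuts microRNA precursors. The table gives 1 value for a gene, both copies together, and DNA methylation was not measured in these libraries.

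The 8 genes lie within 927 kb on chromosome 7 (NCBIM37, coordinates from 1). H19 (chr7:149761434-149764048, minus strand) and Igf2 (chr7:149836673-149852721, minus strand) are 72.6 kb apart. Ascl2 (chr7:150152727-150155169, minus), Cd81 (chr7:150238644-150253839, plus) and Tssc4 (chr7:150255154-150256998, plus) form the middle of the region. Cdkn1c (chr7:150644255-150646955, minus), Slc22a18 (chr7:150659626-150685239, plus) and Phlda2 (chr7:150687450-150688446, minus) stand at its far end, with 12.7 kb and 2.21 kb between neighbours.

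The insulator sequences between H19 and Igf2 are shown because the H19 result below concerns the gene beside them. A CTCF-like motif, written as CCGC, any 2 bases and GGNGGCAG, was searched on both strands of chromosome 7 in NCBIM37. It was chosen with these sites in mind, so its matches are a description. There were 55 matches on the chromosome and 4 from 300 kb before H19 to 300 kb past Phlda2. Those 4 lay intergenically, 2.17 to 3.89 kb upstream of the H19 start, each on the strand of H19. Of 70942 windows of 2 kb, 52 held a match (0.0733%) and 1 held 4 or more. Capitals mark the match, and each match held 2 or 3 CpG dinucleotides, the site of DNA methylation.
chr7:149766206-149766235: agacgatgCCGCGTGGTGGCAGtacaatac
chr7:149766661-149766690: ggatgctaCCGCGCGGTGGCAGcatactcc
chr7:149767687-149767716: cagggttgCCGCACGGCGGCAGtgaagtct
chr7:149767931-149767960: gggagttgCCGCGTGGTGGCAGcaaaatcg

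H19 also holds the hairpin of a microRNA, Mir675. Its mature sequences are shown because Dicer1, which cuts microRNA precursors such as this hairpin, is lost in the Dicer/Dnmt1 KO. Any effect of Dicer1 loss on H19 RNA through this hairpin was not tested. The 84-base hairpin of Mir675 from RefSeq (GRCm38.p6) was found unchanged inside H19 at chr7:149762969-149763052 (NCBIM37, minus strand). Capitals mark the seed, bases 2 to 8, and no other of the 1738 mature mouse microRNAs in the RefSeq table shared either seed. Mature microRNAs were not measured in these libraries.
mmu-miR-675-5p: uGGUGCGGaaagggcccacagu
mmu-miR-675-3p: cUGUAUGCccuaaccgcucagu

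Promoters from 250 bases before to 50 bases after the gene start were matched by symbol in RefSeq (GRCm38.p6) for 7 of the 9 genes, with 4 entries for Igf2; H19 and Cdkn1c had no entry. The counts of CpG dinucleotides were 26 for Phlda2, 23 each for Ascl2, Cd81 and Tssc4, 9 for Kcnq1ot1 and 2 for Slc22a18, and ran from 2 to 24 over the Igf2 entries, beside a median of 7 over 32851 promoters. At least 26 were held by 16.87% of all promoters, at least 23 by 21.52% and at least 2 by 85.88%. None of these 10 entries matched the CTCF-like motif, which 0.122% of all promoters held. Phlda2, Ascl2 and Slc22a18 are printed, with CpG in capitals, as 2 genes called higher than WT below and a close neighbour of Phlda2 that was not called. Ascl2 had to differ, for a reason given below. Tssc4 and Cd81 held as many CpG as Ascl2, yet Tssc4 was not called against WT and Cd81 was lower in Dnmt1 KO. Any link between the CpG count and RNA was not tested.
Phlda2, chr7:143502475-143502774 (GRCm38.p6, minus): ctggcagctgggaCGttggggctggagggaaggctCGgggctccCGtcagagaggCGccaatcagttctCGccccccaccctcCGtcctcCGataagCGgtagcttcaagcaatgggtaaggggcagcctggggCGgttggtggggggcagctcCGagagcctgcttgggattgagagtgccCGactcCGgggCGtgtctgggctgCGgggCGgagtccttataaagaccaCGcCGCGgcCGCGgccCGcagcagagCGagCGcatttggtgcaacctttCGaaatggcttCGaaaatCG
Ascl2, chr7:142969215-142969514 (GRCm38.p6, minus): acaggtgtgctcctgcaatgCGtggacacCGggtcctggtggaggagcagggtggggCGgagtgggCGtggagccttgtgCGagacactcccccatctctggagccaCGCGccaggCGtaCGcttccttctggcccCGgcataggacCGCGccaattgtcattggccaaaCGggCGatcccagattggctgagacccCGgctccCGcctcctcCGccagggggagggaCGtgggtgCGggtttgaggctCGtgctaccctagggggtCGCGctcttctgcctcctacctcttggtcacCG
Slc22a18, chr7:143473539-143473838 (GRCm38.p6, plus): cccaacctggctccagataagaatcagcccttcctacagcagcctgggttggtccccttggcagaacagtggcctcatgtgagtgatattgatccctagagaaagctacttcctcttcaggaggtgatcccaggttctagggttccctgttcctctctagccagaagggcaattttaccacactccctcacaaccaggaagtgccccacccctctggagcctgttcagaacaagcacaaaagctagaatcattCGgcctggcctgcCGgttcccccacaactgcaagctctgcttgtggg

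The libraries held 31.5 to 52.5 M reads, and values are log2 RPM as deposited, the log2 of a gene's reads divided by the library's total in M, so that 1 unit is a doubling. In the labelled knockouts, Dnmt1 RNA was 4.17 to 4.64, beside 7.40 to 7.66 in WT numbers 1 to 3 and 5.55 to 5.69 in WT number 4. Dicer1 RNA was 3.68 to 4.06 in Dicer/Dnmt1 KO and 4.56 to 5.68 in the other groups. WT numbers 1 and 2 did not overlap numbers 3 and 4 for H19, Igf2 and Tssc4, so differences from WT are also given against each of these pairs of numbers. How many of all tested genes did the same was not counted, so nothing is read from the number of such genes. The 9 ESC markers were present in every library, with sums of 1720 to 3346 RPM.

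Loss of Dnmt1 went with more H19, Cdkn1c and Phlda2 RNA and slightly less Cd81, while Igf2, Tssc4 and Slc22a18 were not called. With Dicer1 also lost, the same 3 genes were higher than in WT, and Igf2 was higher as well. Ascl2 was called higher in both, but from levels under 1 RPM in WT. Differences were tested with limma, a linear model fitted to the 12892 genes above 1 RPM in at least 4 libraries, and called at a Benjamini-Hochberg adjusted p under 0.05 over those genes; every adjusted p below is of this kind. All 8 genes passed that filter, but Ascl2 did so through the Dnmt1 KO group and a single Dicer/Dnmt1 KO library, having been under 1 RPM in all 8 WT libraries, so that it had to differ. In Dnmt1 KO against WT, 4 of 8 were higher, where 23.5% of all tested genes were, and 1 of 8 was lower, where 17.5% were (41% in either direction). Higher genes made up 57.3% of all calls there, and 46.3% after quantile normalization. Against WT, the Dicer/Dnmt1 KO had 5 of 8 higher (31.9% of all) and 0 lower by limma (30.1%; 61.9% in either direction), with 1, Tssc4, lower at an unadjusted p under 0.05. Both comparisons share the WT libraries, so their values are not independent. The median difference of the 8 genes was 0.50 and 0.66 on the log2 scale, beside 0.04 and 0.02 over all genes tested. Without Ascl2, 3 of 7 were higher and 1 lower in Dnmt1 KO, and 4 of 7 were higher in the double knockout, with medians of 0.32 and 0.49. Fewer cells of a type and less RNA per cell cannot be told apart in such bulk samples.

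**Figure D1:**
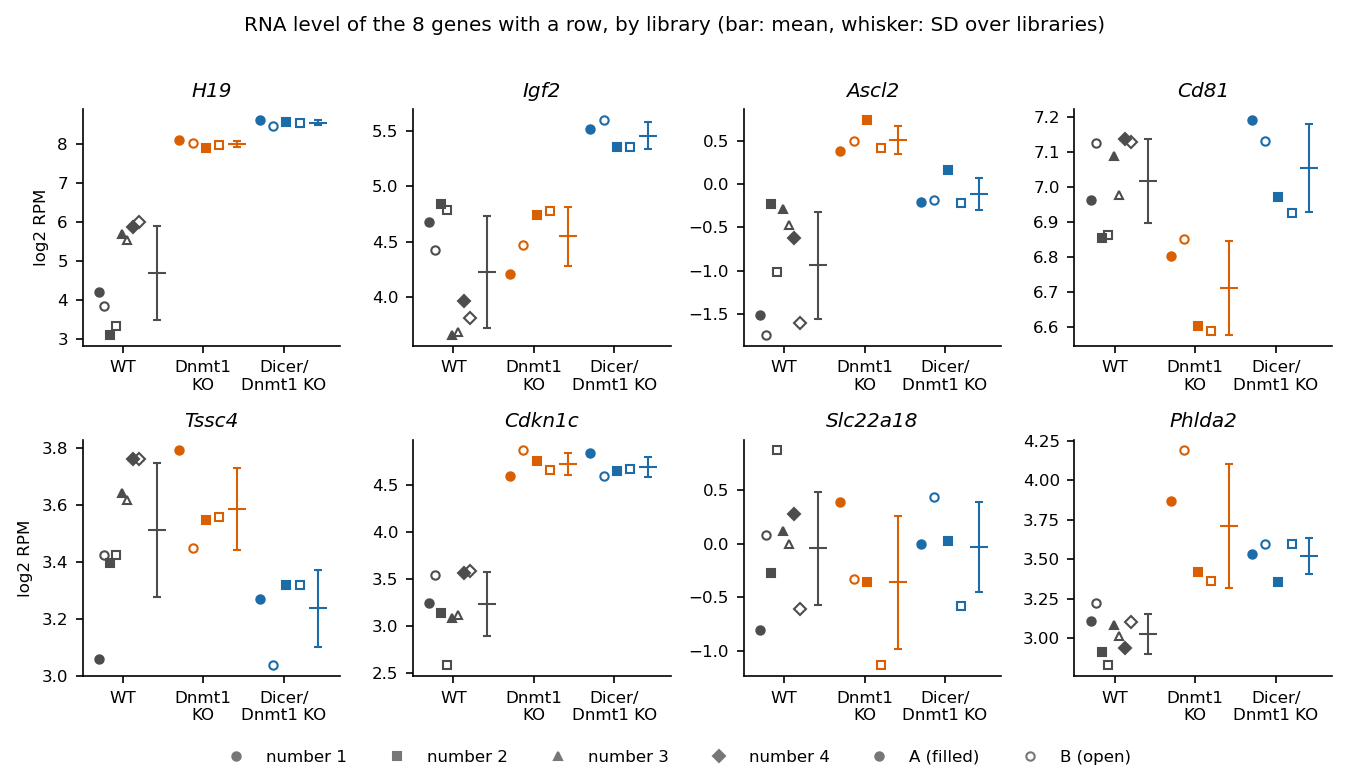
Each panel plots log2 RPM of 1 gene in 16 libraries by group, with shapes for the replicate number, filled points for letter A, open points for letter B, and the mean with its SD at the right of each group. H19 in the 8 knockout libraries sits at 7.90 to 8.61, above the highest WT value of 6.001, and WT numbers 1 and 2 are separate from 3 and 4 for H19 and Igf2.

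H19, a noncoding RNA of 5 exons and 2286 bases, showed the widest differences of the 8 genes. In WT its level was lowest at 3.11, had a median of 4.88 and was highest at 6.001. In Dnmt1 KO libraries 1A, 1B, 2A and 2B it was 8.09, 8.03, 7.90 and 7.97. The Dicer/Dnmt1 KO libraries, in the same order, had 8.61, 8.47, 8.56 and 8.53. Every knockout library lay above every WT library, and every Dicer/Dnmt1 KO library above every Dnmt1 KO library. These levels correspond to means of 34.1 RPM in WT, 256 RPM in Dnmt1 KO and 373 RPM in Dicer/Dnmt1 KO. By limma, H19 was higher than in WT by 3.29 ± 0.46 (SE) in Dnmt1 KO (adjusted p = 2.49e-05, 9.80-fold) and by 3.84 ± 0.46 in Dicer/Dnmt1 KO (adjusted p = 1.99e-06, 14.3-fold).

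The size of the H19 difference depended on which WT libraries served as reference. WT numbers 1 and 2 had a mean of 3.63 ± 0.50 (SD, n = 4) and numbers 3 and 4 of 5.78 ± 0.20 (SD, n = 4). Against numbers 1 and 2 the limma difference was 4.37 in Dnmt1 KO (adjusted p = 2.09e-11) and 4.91 in Dicer/Dnmt1 KO (adjusted p = 5.00e-12). Against numbers 3 and 4 it was 2.22 (adjusted p = 1.73e-10) and 2.76 (adjusted p = 9.43e-12). WT number 3 combined high H19 (5.70 and 5.55) with Dnmt1 RNA as in numbers 1 and 2 (7.40 and 7.46), whereas number 4 had both high H19 and low Dnmt1. Without number 4, the differences were 3.70 (adjusted p = 6.41e-07) and 4.25 (adjusted p = 5.75e-08).

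**Figure D2:**
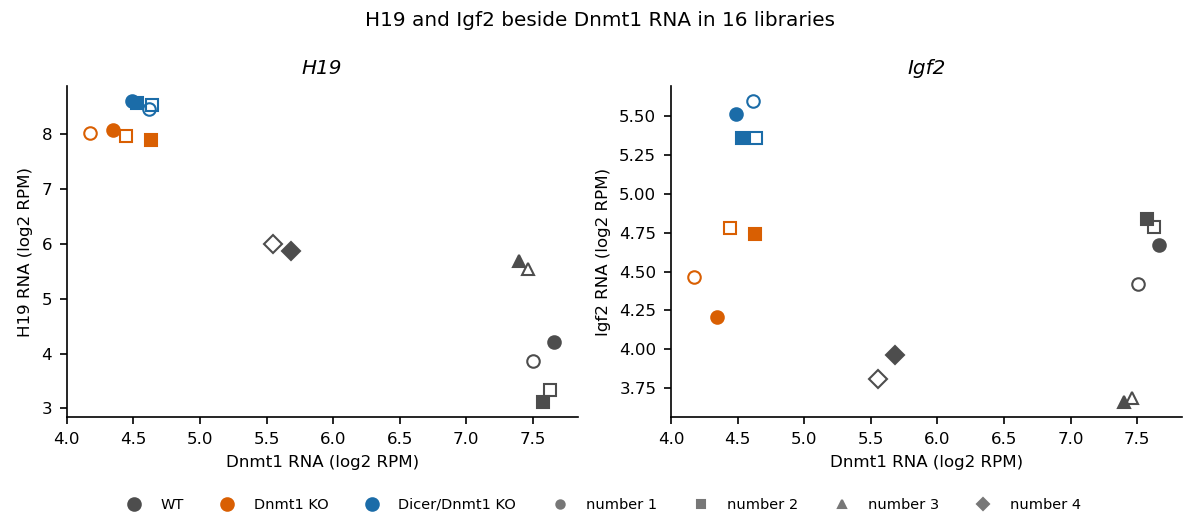
Each point is 1 of 16 libraries, with Dnmt1 RNA (log2 RPM) on the horizontal axes and H19 (left) or Igf2 (right) RNA (log2 RPM) on the vertical axes; colours give the group, shapes the number, and open points letter B. WT number 3 (triangles) has H19 near that of number 4 (diamonds) although its Dnmt1 RNA is 7.40 to 7.46 and that of number 4 is 5.55 to 5.69.

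Igf2, which encodes insulin-like growth factor 2, differed from WT in the Dicer/Dnmt1 KO but was not called in the Dnmt1 KO. In WT its lowest level was 3.66, its median 4.19 and its highest 4.84. In Dnmt1 KO it was 4.21, 4.47, 4.74 and 4.78, inside the WT range. The Dicer/Dnmt1 KO libraries had 5.52, 5.60, 5.36 and 5.36, above every library of the other groups. The limma difference from WT was 0.32 ± 0.21 in Dnmt1 KO (adjusted p = 0.242) and 1.23 ± 0.21 in Dicer/Dnmt1 KO (adjusted p = 9.30e-05, 2.34-fold). In Dnmt1 KO its sign followed the WT numbers used: -0.13 against numbers 1 and 2 (adjusted p = 0.407) and 0.77 against numbers 3 and 4 (adjusted p = 0.000114). The Dicer/Dnmt1 KO values were 0.78 (adjusted p = 6.66e-05) and 1.68 (adjusted p = 1.95e-08). The antisense gene Igf2as overlaps Igf2 over 7124 bases and reached at most 1.34 RPM, beside 12.6 to 48.4 RPM for Igf2; whether the authors' counting used strand is not given in the sources used here.

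The 2 genes of this domain differed in opposite directions between the WT pairs of numbers. H19 was lower by 2.15 on the log2 scale in numbers 1 and 2 than in numbers 3 and 4, and Igf2 higher by 0.90. The log2 ratio of H19 to Igf2 RPM was -1.73 to -0.47 in WT numbers 1 and 2, 1.87 to 2.19 in numbers 3 and 4, 3.15 to 3.88 in Dnmt1 KO and 2.87 to 3.21 in Dicer/Dnmt1 KO. These pairs of numbers are no labelled groups, and these values are a description with no test.

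Cdkn1c, a brake on the cell cycle that inhibits cyclin-dependent kinases, was higher in both knockouts by similar amounts. In WT its lowest level was 2.58, its median 3.19 and its highest 3.58. In Dnmt1 KO it was 4.60, 4.86, 4.75 and 4.65. With Dicer1 lost too it was 4.83, 4.59, 4.64 and 4.67. The knockout groups overlapped each other and lay wholly above WT. By limma the difference from WT was 1.49 ± 0.15 (adjusted p = 3.93e-07, 2.80-fold) in Dnmt1 KO and 1.45 ± 0.15 (adjusted p = 2.15e-07, 2.74-fold) in Dicer/Dnmt1 KO. Against WT numbers 1 and 2 or 3 and 4 it stayed between 1.35 and 1.59. Between the knockouts it was -0.03, with a 95% interval of -0.38 to 0.32 (adjusted p = 0.896).

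Phlda2, which restrains growth of the placenta, was higher than in WT by smaller amounts. Its WT levels had a lowest of 2.83, a median of 3.05 and a highest of 3.22. In Dnmt1 KO it was 3.87, 4.19, 3.42 and 3.36, with number 1 above number 2. With Dicer1 lost too it was 3.53, 3.59, 3.36 and 3.60. Neither group overlapped WT. The limma difference was 0.68 ± 0.13 in Dnmt1 KO (adjusted p = 0.000364, 1.61-fold) and 0.49 ± 0.13 in Dicer/Dnmt1 KO (adjusted p = 0.00283, 1.41-fold). Slc22a18, a transporter gene 2.21 kb from Phlda2, was low and scattered: WT levels ran from -0.81 to 0.87 (median 0.04), Dnmt1 KO was 0.39, -0.33, -0.35 and -1.14, and Dicer/Dnmt1 KO 0.00, 0.44, 0.03 and -0.58. Its groups overlapped, and letters A and B of a number differed by up to 1.15. The difference from WT was -0.32 (95% interval -0.96 to 0.32, adjusted p = 0.426) in Dnmt1 KO and 0.01 (-0.63 to 0.65, adjusted p = 0.974) in Dicer/Dnmt1 KO.

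Ascl2, a transcription factor needed by trophoblast progenitors of the placenta, was close to the lower end of detection. In WT its lowest level was -1.75, its median -0.82 and its highest -0.23, from 11 to 43 reads per library. In Dnmt1 KO it was 0.39, 0.51, 0.74 and 0.42. The double knockout, Dicer/Dnmt1 KO, had -0.21, -0.18, 0.17 and -0.22, so that the 3 groups did not overlap. The limma difference from WT was 1.45 ± 0.28 (adjusted p = 0.000533, 2.73-fold) in Dnmt1 KO and 0.83 ± 0.28 (adjusted p = 0.0171, 1.77-fold) in Dicer/Dnmt1 KO. Ascl2 passed the filter only through knockout libraries and so had to differ, which makes these values a description. The second call was lost under 4 alternatives, among them averaging letters A and B (adjusted p = 0.0830), quantile normalization, which lowered it to 0.32 (adjusted p = 0.232), and leaving out library 2A (adjusted p = 0.0577).

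Cd81, a tetraspanin of the cell surface, was the one gene of the 8 that was lower in Dnmt1 KO. Its WT levels had a lowest of 6.85, a median of 7.03 and a highest of 7.14. In Dnmt1 KO it was 6.80, 6.85, 6.60 and 6.59, and in Dicer/Dnmt1 KO 7.19, 7.13, 6.97 and 6.93. The Dnmt1 KO libraries lay below every WT library, the highest of them by less than 0.01. The limma difference was -0.30 ± 0.08 in Dnmt1 KO (adjusted p = 0.00570, 0.81-fold) and 0.04 ± 0.08 in Dicer/Dnmt1 KO (adjusted p = 0.698). With letters A and B averaged the first call was lost (adjusted p = 0.137). The noncoding gene R74862 overlaps the start of Cd81 by 948 bases on the opposite strand and fell by 1.01 (adjusted p = 0.000123) with Dnmt1 lost and by 1.04 (adjusted p = 4.23e-05) with both lost.

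Tssc4, a neighbour 1.31 kb from Cd81, was not called in either comparison with WT. Trpm5, on the opposite strand, overlaps it and had at most 5 reads in a library. Its WT levels had a lowest of 3.06, a median of 3.52 and a highest of 3.76. In Dnmt1 KO it was 3.79, 3.45, 3.55 and 3.56, and in Dicer/Dnmt1 KO 3.27, 3.04, 3.32 and 3.32. Dnmt1 KO and Dicer/Dnmt1 KO did not overlap, but both overlapped WT. For the double knockout the difference from WT was -0.27 ± 0.12 (adjusted p = 0.0506), a call made against WT numbers 3 and 4 (-0.46, adjusted p = 0.000657) and not against numbers 1 and 2 (-0.09, adjusted p = 0.512).

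**Figure D3:**
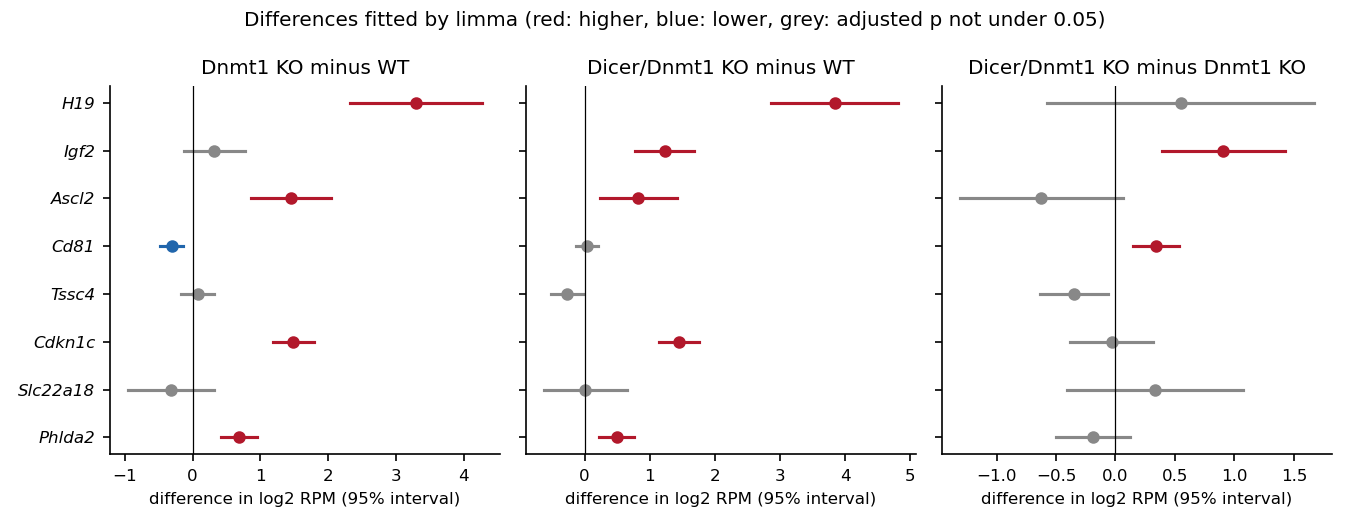
Points are limma differences in log2 RPM for the 8 genes in the 3 comparisons and lines their 95% intervals; red is called higher, blue called lower and grey not called. H19, Ascl2, Cdkn1c and Phlda2 are red in both comparisons with WT, Igf2 only where Dicer1 was lost too, and Cd81 is blue in the first panel.

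The third comparison set Dicer/Dnmt1 KO against Dnmt1 KO. Per the methods, Dicer lines were grown from single cells, and the labels give no time since deletion. Loss of Dicer1 therefore cannot be told apart here from a difference between cell lines or times. Igf2 and Cd81 were higher in Dicer/Dnmt1 KO than in Dnmt1 KO, 2 of the 8 genes, where 16.9% of all tested genes were higher, 19.4% lower and 36.3% either. Igf2 was higher by 0.91 ± 0.25 (adjusted p = 0.00821, 1.88-fold) and Cd81 by 0.34 ± 0.09 (adjusted p = 0.00832, 1.27-fold). H19 was 0.55 ± 0.53 higher (95% interval -0.58 to 1.67, adjusted p = 0.447), Ascl2 lower by 0.62 ± 0.33 (-1.31 to 0.06, adjusted p = 0.143), Tssc4 lower by 0.35 ± 0.14 (-0.63 to -0.06, adjusted p = 0.0522) and Phlda2 lower by 0.19 ± 0.15 (-0.50 to 0.12, adjusted p = 0.328). The 2 groups did not overlap for H19, Igf2, Ascl2, Cd81 and Tssc4. The share of all tested genes without overlap was not counted, so nothing is read from this.

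The calls of this comparison moved with the model more than the others. With the spread taken from the 8 knockout libraries alone, H19 was called at the same 0.55 ± 0.07 (adjusted p = 3.81e-05), and so were Ascl2 (adjusted p = 0.0208) and Tssc4 (adjusted p = 0.0147). With letters A and B averaged, none of the 8 genes was called by limma and 2 had an unadjusted p under 0.05; the adjusted p was then 0.115 for Igf2 and 0.170 for Cd81. With the number as a random effect Igf2 alone was called.

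Levels can be compared between genes after division by transcript length. In WT, Cd81 stood highest at 84.7 ± 6.86 RPM per kb (SD, n = 8), followed by H19 at 14.9 ± 10.2, Phlda2 at 10.8 ± 0.951, Tssc4 at 7.59 ± 1.17, Cdkn1c at 4.97 ± 1.08, Igf2 at 4.19 ± 1.44, Slc22a18 at 0.66 ± 0.25 and Ascl2 at 0.35 ± 0.14. In the range over libraries Cd81 lay above H19, Phlda2 above Tssc4 and Igf2 above Slc22a18 without overlap, whereas the other neighbours in this order overlapped. In the knockouts H19 passed Cd81, with 112 ± 6.29 RPM per kb (SD, n = 4) when Dnmt1 was lost and 163 ± 6.65 when both were. Among the 12892 tested genes, H19 ranked 2376 in WT by this measure, 234 in Dnmt1 KO and 132 in the double knockout.

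**Figure D4:**
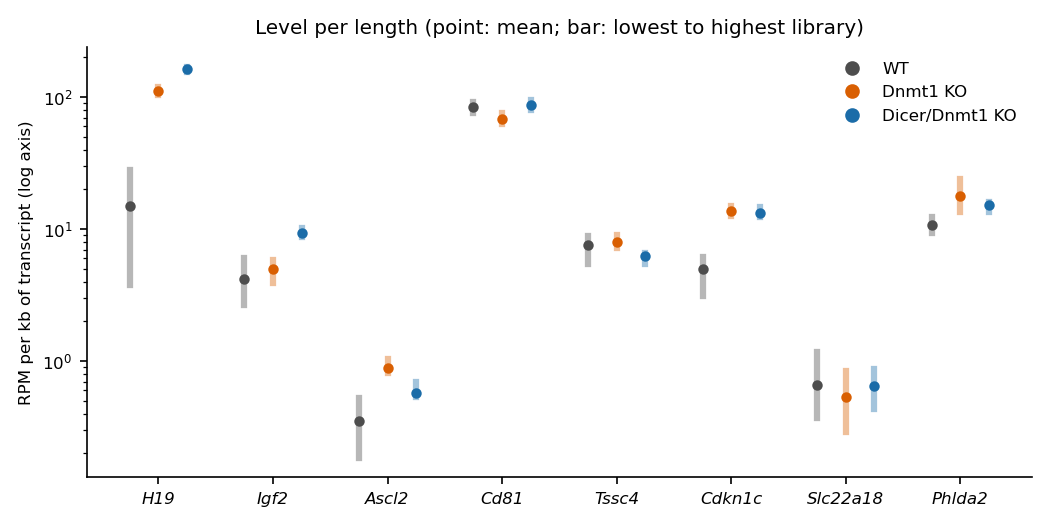
Points are group means of RPM per kb of the longest annotated transcript on a log axis, and bars run from the lowest to the highest library. H19 moves from 14.9 in WT to 112 and 163 in the knockouts, past Cd81, while Slc22a18 and Ascl2 stay at or under 1.18.

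Other genes within 300 kb of the 8 were 29, of which 10 passed the filter. In Dnmt1 KO 3 were higher and 3 lower, beside 23.5% and 17.5% of all tested genes, and in Dicer/Dnmt1 KO 5 and 3, beside 31.9% and 30.1%; with 10 genes, nothing is read from these counts. The widest difference was at Tnfrsf22, a decoy receptor for the death ligand TRAIL past the Phlda2 end, at 3.51 to 4.25 in WT, 6.86 to 7.30 in Dnmt1 KO and 6.37 to 6.815 in Dicer/Dnmt1 KO. Its limma difference from WT was 3.18 ± 0.14 (adjusted p = 2.97e-11) and 2.72 ± 0.14 (adjusted p = 5.89e-11). Its neighbour Tnfrsf23 rose by 1.54 (adjusted p = 0.000331) and 1.68 (adjusted p = 7.45e-05), and the tetraspanin Tspan32, between Ascl2 and Cd81, by 1.61 (adjusted p = 0.000280) and 2.22 (adjusted p = 4.92e-06); both were under 1 RPM in all WT libraries and passed the filter through the knockouts. Lower in both were R74862, the mitochondrial ribosomal protein gene Mrpl23 (-0.44, adjusted p = 0.0133, and -0.70, adjusted p = 0.000224) and Cars, a cysteine tRNA ligase (-0.29, adjusted p = 0.00254, and -0.47, adjusted p = 1.58e-05). Lsp1 (1.04, adjusted p = 0.00131) and Osbpl5 (0.48, adjusted p = 0.0113) were higher in Dicer/Dnmt1 KO. Between the knockouts Lsp1 was higher in Dicer/Dnmt1 KO by 0.87 (adjusted p = 0.0219), and Nap1l4 (-0.31, adjusted p = 0.0291) and Tnfrsf22 (-0.46, adjusted p = 0.0312) were lower.

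**Figure D5:**
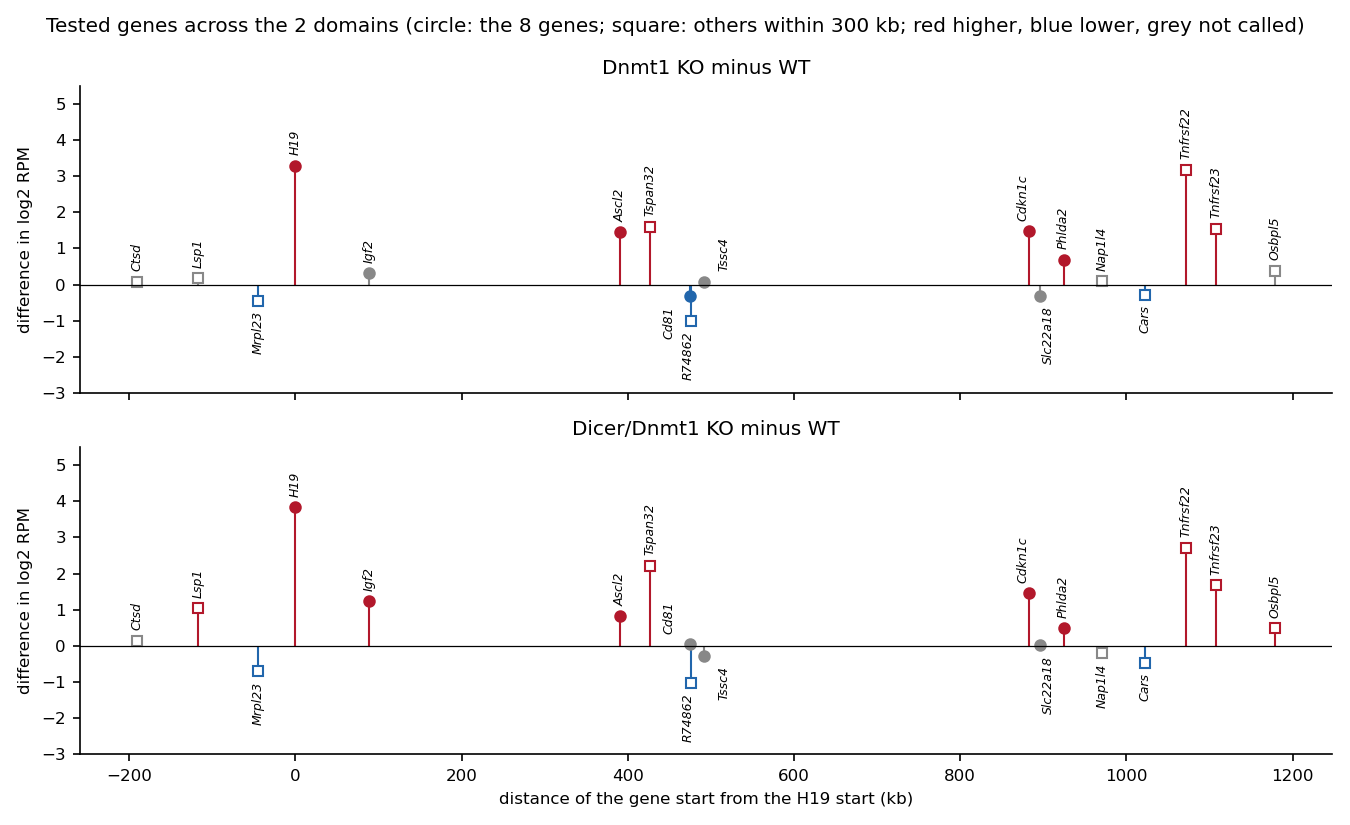
Tested genes are placed by the distance of their start from the H19 start in kb, with the limma difference in log2 RPM from WT as height; circles are the 8 genes, squares other genes within 300 kb, and colours give the call. H19 and Tnfrsf22 are the tallest in both panels (3.29 and 3.18, then 3.84 and 2.72), with lower and uncalled genes between the higher ones.

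A list of 23 neighbours by name, of which 2 lie outside that window, largely repeats these genes. It gave 3 higher and 3 lower of 11 tested with Dnmt1 lost, 5 higher and 3 lower with Dicer1 lost too, and 1 and 2 between the knockouts. The shares of all tested genes were 23.5% and 17.5%, then 31.9% and 30.1%, then 16.9% and 19.4%. Without Tnfrsf23 and Tspan32, which were under 1 RPM in all WT libraries, the counts were 1 and 3 of 9, then 3 and 3, then 1 and 2. From this list, Nadsyn1 fell by 0.85 (adjusted p = 0.000146) and by 1.03 (adjusted p = 8.65e-06) in the 2 comparisons with WT.

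Receptors, binding proteins and relatives of Igf2 were mixed. Of 12 tested of 13 listed, 3 were higher and 5 lower in Dnmt1 KO, and 4 higher and 3 lower in Dicer/Dnmt1 KO. The shares of all tested genes were 23.5% and 17.5%, then 31.9% and 30.1%, and without Igf1 the counts were 2 and 5 of 11, then 3 and 3. Igfbp2, a carrier that binds IGF2 outside the cell, fell by 1.79 ± 0.10 (adjusted p = 6.16e-10) and by 1.88 ± 0.10 (adjusted p = 1.17e-10), and Igfbp3 by 0.94 (adjusted p = 0.00259) and by 1.54 (adjusted p = 1.57e-05). Igf2r, the receptor that clears IGF2, was higher by 0.37 (adjusted p = 0.0305) and 0.58 (adjusted p = 0.00111). Igf1r, the signalling receptor, was not called (-0.44, adjusted p = 0.254, and -0.08, adjusted p = 0.833). Igf1, the sister growth factor, was under 1 RPM in all WT libraries and passed the filter through the Dicer/Dnmt1 KO, so that it had to differ there; its mean was -1.29 log2 RPM in WT, -0.49 with Dnmt1 lost and 0.89 with both lost. Irs1, an adaptor below the receptors, fell by 0.87 (adjusted p = 0.0132) and by 0.72 (adjusted p = 0.0251), and Irs2 by 0.90 in Dnmt1 KO (adjusted p = 0.00900). Igf2bp1 was higher by 0.61 (adjusted p = 0.0183) and 0.55 (adjusted p = 0.0218), and Igfbp4 by 0.43 in Dicer/Dnmt1 KO (adjusted p = 0.00888). Igf2bp2, which binds Igf2 mRNA, fell by 0.52 in Dnmt1 KO (adjusted p = 0.0169) and was higher by 0.90 in Dicer/Dnmt1 KO than in Dnmt1 KO (adjusted p = 0.00150). Between the knockouts 3 of 12 were called, Igf1, Igf2bp2 and Igf2bp3 (0.43, adjusted p = 0.0213), each higher in Dicer/Dnmt1 KO. Without Igf1 it was 2 of 11. Of all tested genes, 16.9% were higher in that comparison and 36.3% were called in either direction.

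Genes that keep imprints were tested as 11 genes. In Dnmt1 KO 5 were higher and 3 lower, beside 23.5% and 17.5% of all tested genes, and 1 of the 3 was the deleted gene Dnmt1 itself. Dnmt3l, a partner of the enzymes that set new methylation, was higher by 1.16 (adjusted p = 7.37e-07), Dnmt3b by 0.67 (adjusted p = 0.000796), Dnmt3a by 0.55 (adjusted p = 0.000863), Trim28 by 0.45 (adjusted p = 0.000149) and Uhrf1 by 0.41 (adjusted p = 0.00108). Zfp57, a zinc finger protein that guards methylated imprints, fell by 0.35 in Dnmt1 KO (adjusted p = 0.0285) and by 0.55 in Dicer/Dnmt1 KO (adjusted p = 0.000821). Dppa3, which shields methylation in the early embryo, fell by 0.29 in Dnmt1 KO (adjusted p = 0.0376). In Dicer/Dnmt1 KO 1 was higher than in WT, Dnmt3a (0.39, adjusted p = 0.00644), and 3 lower, Zfp57, Zfp445 (-0.38, adjusted p = 0.000796) and Dnmt1 itself, beside 31.9% and 30.1% of all. Against Dnmt1 KO, 5 were called, each lower in Dicer/Dnmt1 KO: Dnmt3l (-1.34, adjusted p = 1.96e-06), Dnmt3b (-0.99, adjusted p = 0.000144), Trim28 (-0.52, adjusted p = 0.000232), Uhrf1 (-0.36, adjusted p = 0.00985) and Zfp445 (-0.33, adjusted p = 0.0129). Of all tested genes, 19.4% were lower between the knockouts and 36.3% were called in either direction. Ctcf itself was not called (0.09, adjusted p = 0.596, and 0.06, adjusted p = 0.687).

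Of 8 genes for enzymes and partners that silence chromatin in the Kcnq1ot1 domain, 2 were higher and 1 lower in Dnmt1 KO, and 3 were higher and 3 lower in Dicer/Dnmt1 KO, beside the same shares of all genes. Ehmt2, an H3K9 methyltransferase, rose by 0.53 (adjusted p = 4.66e-06) and by 0.21 (adjusted p = 0.00821). Suz12 rose by 0.29 (adjusted p = 0.0356) and by 0.59 (adjusted p = 0.000139), and Eed fell by 0.66 in Dicer/Dnmt1 KO (adjusted p = 0.000134). Ring1 fell by 0.50 (adjusted p = 0.00505) and by 0.39 (adjusted p = 0.0144). In the double knockout Ezh2 was higher by 0.31 (adjusted p = 0.0299) and Hnrnpk lower by 0.38 (adjusted p = 0.00232). Between the knockouts 2 were called, Ehmt2 (-0.31, adjusted p = 0.00291) and Eed (-0.53, adjusted p = 0.00647), both lower in Dicer/Dnmt1 KO. The shares of all tested genes there were 19.4% lower and 36.3% in either direction.

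Markers of other cell types moved with the same comparisons. Beside the marker counts below, 23.5% of all tested genes were higher and 17.5% lower in Dnmt1 KO than in WT. In Dicer/Dnmt1 KO these shares were 31.9% and 30.1%. The 14 fibroblast markers, which feeder cells would carry, summed to 102 to 180 RPM in WT, 198 to 213 in Dnmt1 KO and 170 to 275 in Dicer/Dnmt1 KO; of 12 tested, 9 and 10 were higher than in WT and 1, Tagln, was lower in each. Col1a2 went from 14.6 to 24.6 RPM in WT to 28.9 to 39.5 in Dnmt1 KO and 31.0 to 53.1 in Dicer/Dnmt1 KO, and Acta2 from 11.2 to 20.7 RPM to 35.6 to 44.5 and 29.9 to 56.1. Tagln, the highest of these markers in WT, went from 38.2 to 94.0 RPM to 34.2 to 45.2 and 30.2 to 39.9. Thy1 was called in neither knockout, and Postn was not called in Dnmt1 KO. The 2 markers not tested, Dcn and Lum, were at or under 0.513 and 0.168 RPM. Within WT the lowest sums, 105 and 102 RPM in number 2, went with the lowest H19 of 8.64 and 10.1 RPM. Numbers 3 (158 and 164 RPM), 4 (130 and 137 RPM) and 1 (176 and 180 RPM) had H19 at 51.8 and 46.9, 58.5 and 64.0, and 18.4 and 14.6 RPM. Primitive endoderm markers summed to 51.8 to 109 RPM in WT, 128 to 218 in Dnmt1 KO and 106 to 124 in Dicer/Dnmt1 KO, with 8 and 5 of 8 tested higher, or 7 and 4 of 7 without Foxa2, which was under 1 RPM in all WT libraries. Trophoblast markers, which bear on Ascl2 and Phlda2, summed to 9.45 to 13.8, 13.7 to 18.3 and 16.9 to 19.6 RPM, and Tpbpa and Prl3d1 were without a read in any library. Of 4 tested trophoblast markers 2 were higher in each knockout, but Cdx2 and Hand1 were under 1 RPM in all WT libraries and passed the filter through the knockouts; of the other 2, Krt7 alone was called higher, in Dicer/Dnmt1 KO. Of the 9 ESC markers, 3 and 2 were called by limma against WT, each lower. The part of these cell types in the results was not tested.

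The tested genes outside the 9 whose log2 RPM was most like that of H19 over 16 libraries were Sparc (Pearson r = 0.986), Apobec2 (0.981) and Vim (0.971). Sparc and Vim encode a matrix protein and an intermediate filament that mesenchymal cells make in quantity. Sparc ran from 6.59 to 6.99 in WT, 7.32 to 7.46 in Dnmt1 KO and 7.40 to 7.49 in Dicer/Dnmt1 KO, a far narrower range than H19. For Igf2 they were Med12l (0.952), Pip5k1b (0.950) and Zbtb37 (0.948), each highest in the Dicer/Dnmt1 KO libraries. None of the 6 lies on chromosome 7. All these values share the 16 libraries and their group differences, are the highest of 12892 correlations, and are given as a description. With the group means taken out, r was 0.925 for Sparc, 0.883 for Apobec2 and 0.815 for Vim. For Med12l, Pip5k1b and Zbtb37 it was 0.864, 0.880 and 0.871. These deviations still hold the differences between WT numbers, and no test was made of them.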

How the data were processed

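Stranded libraries of total RNA, depleted of rRNA, were sequenced. Per the methods, the authors trimmed reads with Trim Galore, aligned them to NCBIM37 with TopHat, discarded alignments with a mapping quality under 20 and quantified genes in SeqMonk. The sample records name Trim Galore 0.3.5 and TopHat2 2.0.11, whereas the paper gives another Trim Galore version and none for TopHat. The deposited values are log2 RPM, 1 column per library; 35 other value columns were not used. Set back to the linear scale, 100% of values below 1000 reads were whole within 0.1 read, and a gene without reads is written as 0.9 read. At these depths 3 reads equal 0.0571 to 0.0954 RPM, a floor for counting error only. Gene models came from GENCODE M1, on the same build.

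Groups came from the labels. limma 3.58.1 in R 4.3.3 fitted 3 group means to the deposited log2 values of all 16 libraries, with an intensity trend and no block; the unit being log2, count tests were not run. Genes over 1 RPM in at least 4 libraries were tested. The script was tested on simulated data in which libraries varied independently. That test therefore does not cover the correlation between libraries of the same number given below. Members and gene lists were chosen with earlier results of these data known. Named are the 9 genes, called genes of the lists, called genes within 300 kb, the label checks Dnmt1 and Dicer1, and the 3 genes most correlated with H19 and with Igf2. Outside that rule, uncalled, overlapping or untested genes (Ctcf, Igf1r, Igf2as, Trpm5, Kcnq1, Ins2) and single cell type markers were named after their values were seen. Alternatives were 2 scalings, log2(RPM + 1), no filter, averaging or blocking libraries, subsets of WT, fits of 2 groups, a length correction and leaving out each library. The libraries A and B of each number differed by more than counting noise and entered as separate replicates. That does not make them independent. In the limma fit with the number as a random effect, libraries of the same number correlated at 0.667. The main p-values ignore this and may be too small.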

Additional observations from a re-analysis of the deposited data

Results flagged for a closer look

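A library that stood apart from the others of its group was looked for in 24 sets of values, 8 genes in 3 groups; chance flags about 1 in 20 such sets. Ascl2 in Dicer/Dnmt1 KO library 2A was at 0.169 log2 RPM, where the other 3 libraries were at -0.22 to -0.18, a gap of 0.905 of the range, above Dixon's critical value for 4 libraries. It rests on 43 reads.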

How the results depend on the processing

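The counts of called genes among the 8 kept within 1.5 times of the reported value in both comparisons with WT under every alternative run, from 4 to 6 in each. Between the knockouts the count was 2, and became 0 with letters A and B averaged, 1 with the number as a random effect, 4 with quantile normalization, 4 with WT numbers 1 and 2 only, 4 with WT numbers 3 and 4 only and 5 with the 2 groups alone. H19, Cdkn1c and Phlda2 were called higher than WT in both knockouts under all 29 alternatives, and Igf2 in Dicer/Dnmt1 KO likewise. Ascl2 was called in Dnmt1 KO under 29 and in Dicer/Dnmt1 KO under 25. It passed the filter only through knockout libraries and had to differ, so its counts lend no support. Replicate numbers did not pair libraries across groups: of 12 pairs with the same label, the correlation of deviations from group means ran from -0.418 to 0.372 and exceeded 0.1 in 4. A replicate block by number gave 6, 5 and 4 called genes in the 3 comparisons, and a block by full label 5, 5 and 4.

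Directions turned in few results, none of them called. Igf2 in Dnmt1 KO was -0.13 under both replicate blocks and with WT numbers 1 and 2 only, and Tssc4 there -0.11 with WT numbers 3 and 4 only. In Dicer/Dnmt1 KO against WT, Cd81 was -0.028 with median centring and with WT numbers 3 and 4 only, and was called higher with the length trend removed (0.25, adjusted p = 0.00164 by limma). Slc22a18 there was -0.053 with median centring, -0.36 with quantile normalization, -0.0035 on log2(RPM + 1) and -0.029 with WT numbers 1 to 3, an alternative added after seeing the data. Between the knockouts, removing the length trend gave 0.10 for Cdkn1c and 0.12 for Phlda2. Leaving out 1 library at a time gave -0.0077 to 0.080 for Cd81 and -0.14 to 0.20 for Slc22a18 against WT in Dicer/Dnmt1 KO, and -0.082 to 0.016 for Cdkn1c between the knockouts. Over all genes, calls in the order Dnmt1 KO against WT, Dicer/Dnmt1 KO against WT and between the knockouts numbered 5289, 7985 and 4682, and 2288, 5134 and 1225 with letters averaged or 2723, 5755 and 2109 with the number as a random effect. Higher genes were 57.3% of calls in Dnmt1 KO against WT, and 46.3% after quantile normalization. At these depths Ascl2 and Slc22a18 rest on 11 to 78 reads a library, and the lack of a call for Slc22a18 is no sign of equal levels.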

Other observations

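Of the 29 other genes within 300 kb, 19 were not tested, and 6 of them, among them the insulin gene Ins2, had no read in any library. Kcnq1, the gene that contains Kcnq1ot1 on its opposite strand, reached at most 19 reads in a library and was at 0.114 to 0.477 RPM in WT, 0.0912 to 0.168 in Dnmt1 KO and 0.027 to 0.381 in Dicer/Dnmt1 KO. Igf2as was at 0.404 to 0.774, 0.333 to 0.746 and 0.523 to 1.34 RPM in the same order.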
